A study of Mus musculus with 12 samples.

Results

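The ligand genes of the BMP, activin and TGF-beta branches were followed in mouse brainstem progenitors that carried a delivered *ACVR1*, the receptor through which several BMPs signal. The set held 10 genes (*Bmp2*, *Bmp4*, *Bmp6*, *Bmp7*, *Inhba*, *Inhbb*, *Gdf11*, *Tgfb1*, *Tgfb2* and *Tgfb3*), listed by name, of 54532 genes counted in each of 12 RNAseq libraries. The cells came from C57BL/6 pups of postnatal days 3 to 5 by the labels, and of postnatal day 3 by the methods, with the genotype Nestin TVA and p53 floxed, and were grown without serum with EGF and FGF2. RCAS vectors, built on a bird retrovirus that enters mammalian cells bearing the TVA receptor, delivered ACVR1 WT, ACVR1 WT and H3.1K27M, ACVR1 R206H, or ACVR1 R206H and H3.1K27M, with 3 libraries in each of the 4 groups.

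All 4 groups thus shared the Nestin-driven TVA receptor, the p53 floxed alleles and an added *ACVR1*, which the labels of the samples call human. No Cre vector was named for these cells, and no group went without an *ACVR1* vector. The share of infected cells is not given in the sources used here, and the labels do not say whether libraries of a group came from separate pups, so the p values measure the spread between these libraries. Total counts per library ran from 19315020 to 26456257.

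Ligands of this family are secreted dimers, cut from longer precursors, that bring together type I and type II receptors at the cell surface. BMPs signal through type I receptors such as ACVR1 and BMPR1A to one class of SMAD proteins, whose classical targets are the *Id* genes. Activins, GDF11 and TGF-beta signal through other type I receptors to a second class. The wild-type ACVR1 receptor binds activin A without starting BMP signaling, whereas the R206H receptor responds to it. H3.1K27M is a histone H3 mutation that lowers methylation of H3 at the mutated site, a mark found mainly at CpG-rich promoters.

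The levels of the mouse *Acvr1* gene moved with the groups, and this bears on every comparison. Its level was 50.9 ± 3.91 CPM (counts scaled to a common library size, SD, n = 3) with ACVR1 WT, 93.8 ± 17.3 with ACVR1 R206H, 232 ± 115 with ACVR1 WT and H3.1K27M, and 872 ± 271 with ACVR1 R206H and H3.1K27M. Reads of the human vector may be among them, and gene counts do not show the R206H change itself. Because *Acvr1* was 2.20 ± 0.33 (SE) higher on the log2 scale with H3.1K27M among the ACVR1 WT libraries and 3.23 ± 0.21 higher among the ACVR1 R206H libraries, H3.1K27M and the *Acvr1* level cannot be told apart.

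The ACVR1 WT libraries stood apart from one another. The biological coefficient of variation was 0.273 within ACVR1 WT, against 0.0451 to 0.0594 within each of the other 3 groups. The sum of 5 astrocyte markers was 2568, 7545 and 11822 CPM in ACVR1 WT replicates 1, 2 and 3. It was 4729 to 5693 with ACVR1 R206H, 2855 to 3043 with ACVR1 WT and H3.1K27M and 3575 to 3650 with ACVR1 R206H and H3.1K27M. The 7 markers of neural progenitors, the labelled cell type, summed to between 4123 and 5885 CPM over the 12 libraries. Within ACVR1 WT their sum was 5517, 5103 and 4123 CPM in replicates 1, 2 and 3, opposite to the astrocyte order, and *Nes*, the nestin gene, was at 407, 132 and 73.0 CPM. In bulk RNA, fewer cells of a type and less RNA per cell cannot be told apart.

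The promoters of the activin subunit genes and of *Tgfb2* are shown because the subunit genes moved in opposite directions and *Tgfb2* moved both ways. Promoter windows from RefSeq, 250 bases before to 50 after the start site on GRCm38.p6, were used for 7 of the 10 genes, and those of *Bmp2*, *Bmp7* and *Tgfb3* were not analysed here. *Inhba* (chr13:16011601-16011900, plus strand) and *Inhbb* (chr1:119422199-119422498, minus strand) are written with CG pairs in capitals.
Inhba: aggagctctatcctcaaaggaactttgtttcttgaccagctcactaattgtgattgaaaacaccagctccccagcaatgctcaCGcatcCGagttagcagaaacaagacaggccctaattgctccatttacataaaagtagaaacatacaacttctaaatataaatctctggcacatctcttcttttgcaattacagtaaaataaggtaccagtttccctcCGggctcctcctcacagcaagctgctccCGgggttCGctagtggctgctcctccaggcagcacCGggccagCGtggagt
Inhbb: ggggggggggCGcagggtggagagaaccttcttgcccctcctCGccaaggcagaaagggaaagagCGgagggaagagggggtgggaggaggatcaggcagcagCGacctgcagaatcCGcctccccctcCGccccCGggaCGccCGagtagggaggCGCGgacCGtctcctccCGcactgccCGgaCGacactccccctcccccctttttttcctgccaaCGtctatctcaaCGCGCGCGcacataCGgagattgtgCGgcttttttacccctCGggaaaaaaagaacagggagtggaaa
In *Tgfb2* (chr1:186705940-186706239, minus strand) the capitals mark the SMAD box, searched as CAGAC or GTCTG.
Tgfb2: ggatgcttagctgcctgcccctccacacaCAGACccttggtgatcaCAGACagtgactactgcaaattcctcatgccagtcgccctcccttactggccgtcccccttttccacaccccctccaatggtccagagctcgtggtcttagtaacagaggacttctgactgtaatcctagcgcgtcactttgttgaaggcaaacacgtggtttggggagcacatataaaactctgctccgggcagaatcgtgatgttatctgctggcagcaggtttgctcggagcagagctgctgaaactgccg
The *Inhba* window held 7 CG pairs at 47.7% GC and the *Inhbb* window 23 at 64.3% GC, where 52.1% and 21.5% of 32851 mouse promoters held at least as many CG pairs. The other windows held 10 CG pairs in *Tgfb2*, 12 in *Bmp4*, 27 in *Bmp6*, 30 in *Tgfb1* and 36 in *Gdf11*. The SMAD box occurred at positions -221 and -204 from the start site of *Tgfb2* and at -119 in *Bmp6*, and in 49.6% of all promoters. GGCGCC, a GC-rich SMAD motif that contains a CG pair, occurred in none of the 7 windows and in 11.9% of all promoters. TATAAA, searched on both strands, lay at -31 in *Tgfb2*, at -91 in *Inhba* and at -185 in *Gdf11*, and in 13.6% of all promoters. None of these matches is a measure of binding.

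Per length of exon, 4 ligand genes made up most of the ligand transcripts in all groups. *Tgfb2*, *Gdf11*, *Inhbb* and *Bmp7* were the 4 highest in each group by mean CPM per kb, at 5.75 to 17.8, and the other 6 genes lay between 0.126 and 2.47. With ACVR1 R206H the order was *Tgfb2* (17.8 CPM per kb), *Gdf11* (13.8), *Inhbb* (12.5) and *Bmp7* (7.40), and the ranges of neighbours in this order did not overlap. With ACVR1 WT and H3.1K27M the order became *Gdf11* (15.5), *Bmp7* (13.8), *Tgfb2* (11.4) and *Inhbb* (7.27), again without overlap. With ACVR1 R206H and H3.1K27M it was *Gdf11* (17.4), *Tgfb2* (15.2), *Bmp7* (9.08) and *Inhbb* (5.75), also without overlap. Within ACVR1 WT the ranges of these neighbours overlapped.

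The sum over the 10 genes was nearly the same in all groups while its makeup differed. It was 53.9 ± 5.44 CPM per kb (SD, n = 3) with ACVR1 WT, 54.2 ± 0.676 with ACVR1 R206H, 51.0 ± 0.670 with ACVR1 WT and H3.1K27M and 51.4 ± 0.574 with ACVR1 R206H and H3.1K27M. The 2 activin subunit genes gave 23.0% and 23.5% of the sum in the groups without H3.1K27M, and 14.5% with ACVR1 WT and H3.1K27M and 11.8% with ACVR1 R206H and H3.1K27M. The 4 BMP genes gave 28.2% ± 0.268 with ACVR1 WT and H3.1K27M, above 14.9% to 19.5% in the other groups. The 3 TGF-beta genes gave 36.2% and 35.6% in the groups with ACVR1 R206H, and 30.5% and 27.02% in those with ACVR1 WT. These shares are descriptions of the libraries and were not tested.

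**Figure D1:**
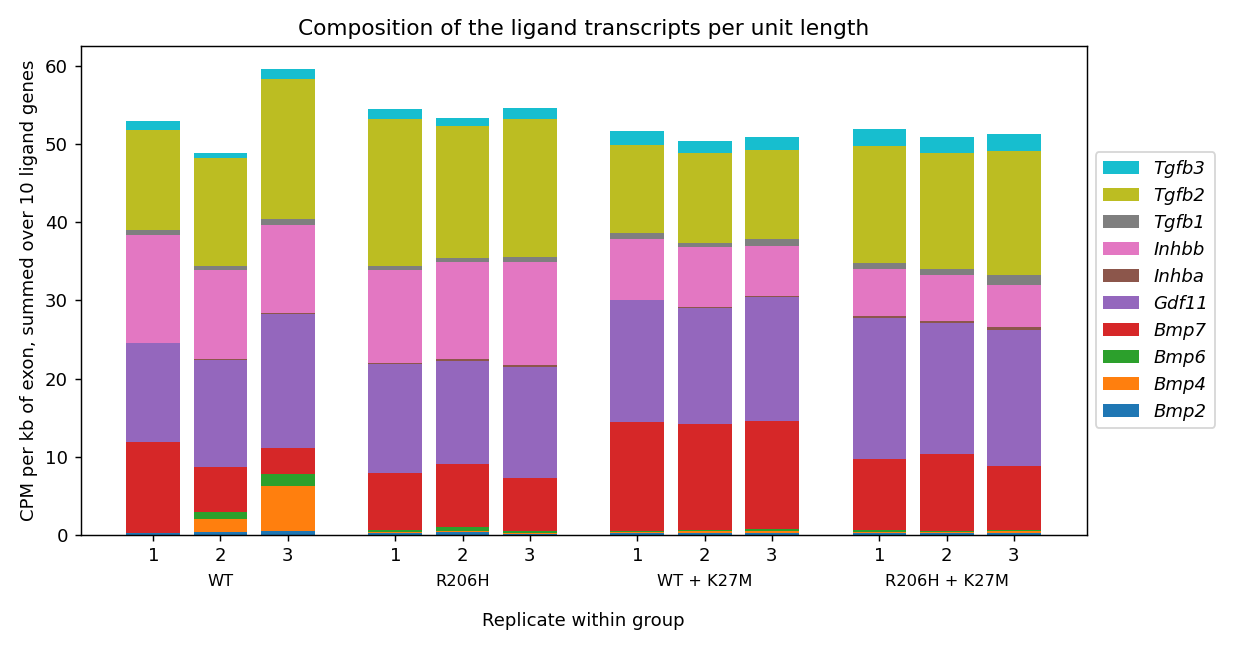
Stacked bars give the level per exon length (CPM per kb) of each of the 10 ligand genes in each library, with replicates 1 to 3 of the 4 groups along the horizontal axis. The bar heights lie between 48.9 and 59.7, while the *Inhbb* segment is smaller and the *Tgfb3* segment larger in each of the 6 libraries with H3.1K27M than in the others.

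*Inhbb*, which encodes the subunit of activin B (chromosome 1, 119415465 to 119422248, minus strand), was lower in every library with H3.1K27M than in any without it. Its level was 58.8, 48.4 and 48.2 CPM in ACVR1 WT replicates 1, 2 and 3, and 50.7, 53.2 and 56.2 with ACVR1 R206H. It was 33.1, 32.4 and 27.4 CPM with ACVR1 WT and H3.1K27M, and 25.4, 24.7 and 23.2 with ACVR1 R206H and H3.1K27M. The 2 groups with H3.1K27M did not overlap each other either, and the groups without it did. With H3.1K27M, *Inhbb* fell by 0.73 ± 0.12 (SE) on the log2 scale among the ACVR1 WT libraries (edgeR quasi-likelihood test, adjusted p = 0.00938), a fold of 1.66. Among the ACVR1 R206H libraries it fell by 1.12 ± 0.06 (edgeR adjusted p = 3.0e-08), a fold of 2.17. Both calls stood in every alternative fit run. The raw counts behind these levels were 535 to 1241 per library.

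*Inhba* (chromosome 13, 16011851 to 16031621, plus strand), whose product pairs to form activin A, was a low gene that was higher in a single group. Its raw counts were 43, 40 and 64 with ACVR1 R206H and H3.1K27M, and 4 to 29 in the other 9 libraries. The levels were 2.04, 1.76 and 2.39 CPM in that group. With ACVR1 WT and H3.1K27M they were 0.614, 0.809 and 1.15, with ACVR1 R206H 0.950, 0.879 and 1.31, and with ACVR1 WT 0.190, 1.24 and 1.08. The 3 libraries with both alterations were thus above all others, which overlapped. *Inhba* rose 2.41-fold with R206H in the presence of H3.1K27M (log2 fold change 1.27 ± 0.26 SE, edgeR adjusted p = 0.00382) and 1.99-fold with H3.1K27M in the presence of R206H (0.99 ± 0.24, edgeR adjusted p = 0.00369). The 2 subunit genes thus moved in opposite directions in both comparisons. Both *Inhba* calls were lost in a single fit of all 12 libraries (edgeR adjusted p = 0.170 and 0.0892). The *Inhba* interaction of R206H and H3.1K27M was 0.92 ± 0.64 and did not pass (edgeR adjusted p = 0.743). Per exon length *Inhbb* remained far above *Inhba*, at 5.75 against 0.323 CPM per kb with both alterations.

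*Tgfb2* (chromosome 1, 186622792 to 186705989, minus strand) encodes the TGF-beta isoform with the highest level here. Its level was 74.8, 80.4 and 104 CPM with ACVR1 WT and 110, 97.6 and 103 with ACVR1 R206H. With H3.1K27M it was 65.2, 66.4 and 66.7 CPM beside ACVR1 WT and 86.3, 86.3 and 91.9 beside ACVR1 R206H. The ACVR1 WT and H3.1K27M libraries were the lowest of all 12. *Tgfb2* rose 1.34-fold with R206H in the presence of H3.1K27M (log2 fold change 0.42 ± 0.04 SE, edgeR adjusted p = 2.49e-05), and fell by 0.22 ± 0.05 on the log2 scale with H3.1K27M in the presence of R206H (edgeR adjusted p = 0.00357). Without H3.1K27M its R206H difference was 0.27 ± 0.13 (edgeR adjusted p = 0.940), and the groups overlapped.

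*Tgfb3* (chromosome 12, 86056745 to 86079041, minus strand), a second TGF-beta isoform, was above the groups without H3.1K27M in each library with it. The levels were 3.89, 2.02 and 4.40 CPM with ACVR1 WT, 4.05, 3.57 and 4.60 with ACVR1 R206H, 6.14, 5.23 and 5.38 with ACVR1 WT and H3.1K27M, and 7.74, 6.54 and 7.33 with both. *Tgfb3* rose 1.78-fold with H3.1K27M among the ACVR1 R206H libraries (log2 fold change 0.83 ± 0.13 SE, edgeR adjusted p = 0.000196). Among the ACVR1 WT libraries the difference of 0.71 ± 0.29 did not pass (edgeR adjusted p = 0.122), although the groups did not overlap. With R206H in the presence of H3.1K27M it rose 1.29-fold (0.37 ± 0.11, edgeR adjusted p = 0.0356), a call that DESeq2 did not make (adjusted p = 0.0973) and that was lost when any of 4 single libraries was left out (adjusted p up to 0.132). It shares 420 exonic bases, 12.4% of its exons, with 2 genes of the opposite strand, whose highest count in any library was 2. By the methods, ambiguous reads were given to no gene, so reads on the shared bases could be missing from both counts.

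*Tgfb1* (chromosome 7, 25687002 to 25705077, plus strand), the isoform best known from immune and scar tissue, had raw counts of 46 to 163. Its level was 2.39 to 3.67 CPM with ACVR1 WT, 2.50 to 3.34 with ACVR1 R206H, 2.76 to 4.16 with ACVR1 WT and H3.1K27M and 4.13 to 6.09 with both. The last group lay above both groups without H3.1K27M and met the ACVR1 WT and H3.1K27M group at its lower end. *Tgfb1* rose 1.71-fold with H3.1K27M among the ACVR1 R206H libraries (log2 fold change 0.77 ± 0.19 SE, edgeR adjusted p = 0.00449) and did not pass in the other comparisons. For R206H in the presence of H3.1K27M its difference of 0.42 had an edgeR adjusted p of 0.148, and without the filter on low counts it passed (0.40, edgeR adjusted p = 0.0468). That made 7 of 10 ligand genes called there, where 3691 of 30840 genes were.

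*Gdf11* (chromosome 10, 128882295 to 128891718, minus strand), a relative of myostatin that restrains neuron production, had the narrowest range relative to its level over the 12 libraries, 51.5 to 73.2 CPM. Its level was 51.5, 55.7 and 69.8 CPM with ACVR1 WT, 56.5, 54.1 and 57.9 with ACVR1 R206H, 63.2, 60.6 and 64.6 with ACVR1 WT and H3.1K27M, and 73.2, 68.5 and 70.7 with both. The ACVR1 WT libraries overlapped each other group, and the 3 other groups did not overlap. *Gdf11* rose 1.27-fold with H3.1K27M among the ACVR1 R206H libraries (log2 fold change 0.34 ± 0.05 SE, edgeR adjusted p = 7.6e-05). With R206H in the presence of H3.1K27M it rose 1.13-fold (0.18 ± 0.05, edgeR adjusted p = 0.0163), a call lost when any of 3 single libraries was left out (adjusted p up to 0.0988).

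*Bmp7* (chromosome 2, 172868012 to 172940321, minus strand) was the highest BMP gene and its product is a ligand of ACVR1. Its level was 46.7, 23.3 and 13.1 CPM with ACVR1 WT, a wide spread, and 29.8, 32.4 and 27.1 with ACVR1 R206H. It was 56.0, 54.5 and 55.5 CPM with ACVR1 WT and H3.1K27M and 36.8, 39.7 and 32.9 with both. *Bmp7* fell by 0.60 ± 0.06 (SE) on the log2 scale with R206H in the presence of H3.1K27M (edgeR adjusted p = 3.02e-05), a fold of 1.51, and the groups were well apart. With H3.1K27M it rose 1.24-fold among the ACVR1 R206H libraries (0.30 ± 0.08, edgeR adjusted p = 0.00745), a call lost in the single fits of all 12 libraries (adjusted p = 0.489) and of 11, without ACVR1 WT replicate 1 (adjusted p = 0.0782). Among the ACVR1 WT libraries its difference of 1.01 ± 0.42 had an edgeR adjusted p of 0.129, with every library of the H3.1K27M group above the 3 others.

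*Bmp4* (chromosome 14, 46383520 to 46390669, minus strand) and *Bmp6* (chromosome 13, 38345107 to 38500302, plus strand), the former known to promote astrocyte formation, differed most within ACVR1 WT. The *Bmp4* count was 1, 72 and 264 in ACVR1 WT replicates 1, 2 and 3 and between 4 and 17 in the other 9 libraries, that is 0.0474, 3.73 and 12.9 CPM against 0.20 to 0.673 CPM. The *Bmp6* count was 7, 62 and 127 in the same order and 9 to 32 elsewhere, or 0.332, 3.22 and 6.21 CPM against 0.395 to 1.65 CPM. For both genes ACVR1 WT replicate 1 was the lowest of the 12 libraries and replicate 3 the highest. *Bmp7* ran the other way in these 3 libraries. The order was that of the astrocyte marker sum given above and of the sums of 8 microglia markers (5.74, 23.0 and 35.8 CPM), 5 oligodendrocyte markers (117, 250 and 351 CPM) and 5 choroid plexus markers (20.95, 30.4 and 52.7 CPM). The part of these cells in the *Bmp4* and *Bmp6* levels was not tested. *Bmp6* shares 224 exonic bases with *Txndc5* on the opposite strand. The counting used no strand and gave ambiguous reads to no gene, so reads on these bases could be missing from both counts.

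*Bmp2* (chromosome 2, 133552159 to 133562885, plus strand), a close relative of *Bmp4*, had 7 to 33 counts per library and passed in no comparison. Its level was 0.521, 1.30 and 1.61 CPM with ACVR1 WT and 0.339 to 1.24 elsewhere, and all groups overlapped. Its SEs ran from 0.28 to 0.57 on the log2 scale in the 4 comparisons.

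**Figure D2:**
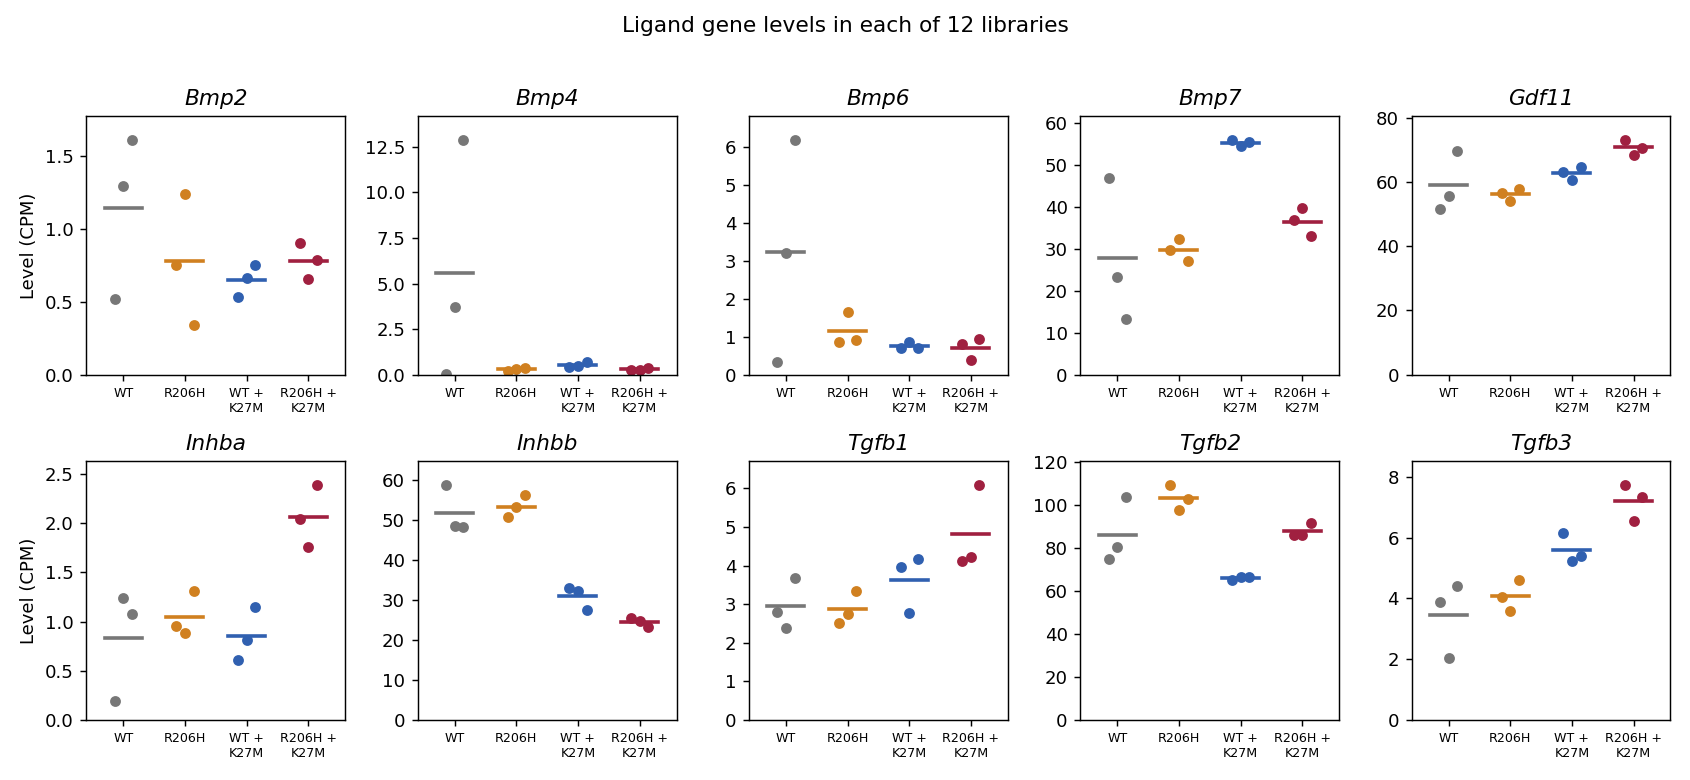
Each point is the level of a ligand gene (CPM, linear axis from 0) in 1 library, in 4 groups of 3 (WT and R206H name the *ACVR1* vector, K27M stands for H3.1K27M), and each bar marks the group mean. *Inhbb* lies between 23.2 and 33.1 in the 6 libraries with H3.1K27M and between 48.2 and 58.8 in the 6 without it, and the spread of *Bmp4*, *Bmp6* and *Bmp7* is widest within ACVR1 WT.

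The comparison of R206H with WT in the presence of H3.1K27M asks how ligand expression differed between the mutant and wild-type receptor in cells that also carry H3.1K27M. *Acvr1* rose by 1.91 ± 0.28 (SE) on the log2 scale here, so that R206H and the *Acvr1* level cannot be told apart either. Of the 9 ligand genes tested (*Bmp4* had too few counts), 6 passed: *Inhba*, *Tgfb2*, *Tgfb3* and *Gdf11* rose, and *Bmp7* and *Inhbb* fell. Among all 15672 genes tested 20.3% passed, 11.4% as higher and 8.95% as lower. The same 6 ligand genes did not overlap between the groups, as did 36.8% of all genes. The median log2 fold change was 0.27 over the 9 ligand genes and 0.0014 over all genes. The groups did not overlap for the untested *Bmp4* either, at 0.409 to 0.673 CPM with ACVR1 WT and H3.1K27M and 0.237 to 0.374 CPM with both, from 5 to 17 counts per library.

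That fit took the spread from its own 6 libraries, and the calls were lost where it was taken from all 12. In a single fit of all 12 libraries 0 of 9 ligand genes passed in edgeR, where 2.85% of genes did, and 3 had an unadjusted p below 0.05. The log2 fold changes hardly moved, with *Bmp7* at -0.61 ± 0.32 (SE), *Inhba* at 1.26 ± 0.42, *Tgfb2* at 0.41 ± 0.10 and *Inhbb* at -0.34 ± 0.10, while their SEs were larger. Leaving ACVR1 WT replicate 1 out of that fit, a choice made after the data were seen, gave 4 of 9 (*Bmp7*, *Inhba*, *Inhbb* and *Tgfb2*), where 12.9% of genes passed. Marker lists moved with R206H here as well. The astrocyte marker sum was 3575 to 3650 against 2855 to 3043 CPM, where *Aqp4* and *Gfap* rose and the other 3 markers did not pass, with a median log2 fold change of -0.041 over the 5. The 8 markers of pericytes, meninges and fibroblasts summed to 30.5 to 35.0 against 18.8 to 20.8 CPM (3 of 7 tested rose), and 7 neuron markers to 30.4 to 33.2 against 21.6 to 24.7 CPM (of 6 tested 3 rose and 1 fell). The 5 oligodendrocyte markers summed to 152 to 175 against 200 to 219 CPM (3 fell), and the 6 endothelial markers to 6.46 to 8.75 against 4.87 to 5.14 CPM (1 of 4 tested rose). Of 7 neural progenitor markers 5 rose and *Nes* fell. Their part in the ligand differences was not tested. The 8 microglia markers summed to 2.11 to 3.07 against 1.28 to 1.54 CPM, and *P2ry12*, the 1 of them tested, rose, while *Ptprc*, *Cx3cr1* and *Csf1r* had at most 9 counts in any of the 6.

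Without H3.1K27M the same comparison gave no call. In edgeR 0 of 10 ligand genes passed, as did 0% of 15066 genes, and 1, *Bmp4*, had an unadjusted p below 0.05. The *Bmp4* log2 fold change was -4.26 ± 1.48 (SE, edgeR adjusted p = 0.940), and without ACVR1 WT replicate 3 it was -2.68, while that of *Bmp6* went from -1.50 to -0.61. DESeq2 called 0 of 10 and 0.173% of all genes. For 0 of 10 ligand genes were the groups free of overlap, against 9.61% of all genes. Without ACVR1 WT replicate 1, edgeR called 3 of 10, where 23.1% of genes passed: *Bmp4* (-4.84 ± 0.63, adjusted p = 0.00338) and *Bmp6* (-2.04 ± 0.37, adjusted p = 0.00797) were lower with R206H, and *Bmp7* (0.72 ± 0.21, adjusted p = 0.0419) was higher. Those values then rest on 2 ACVR1 WT libraries. *Bmp4*, at 4 to 7 counts with ACVR1 R206H, passed the filter of a mean count of 10 only through the ACVR1 WT libraries, which fixed its direction, and it is no support for a difference. The absence of a call with all libraries does not show that the ligands did not differ.

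**Figure D3:**
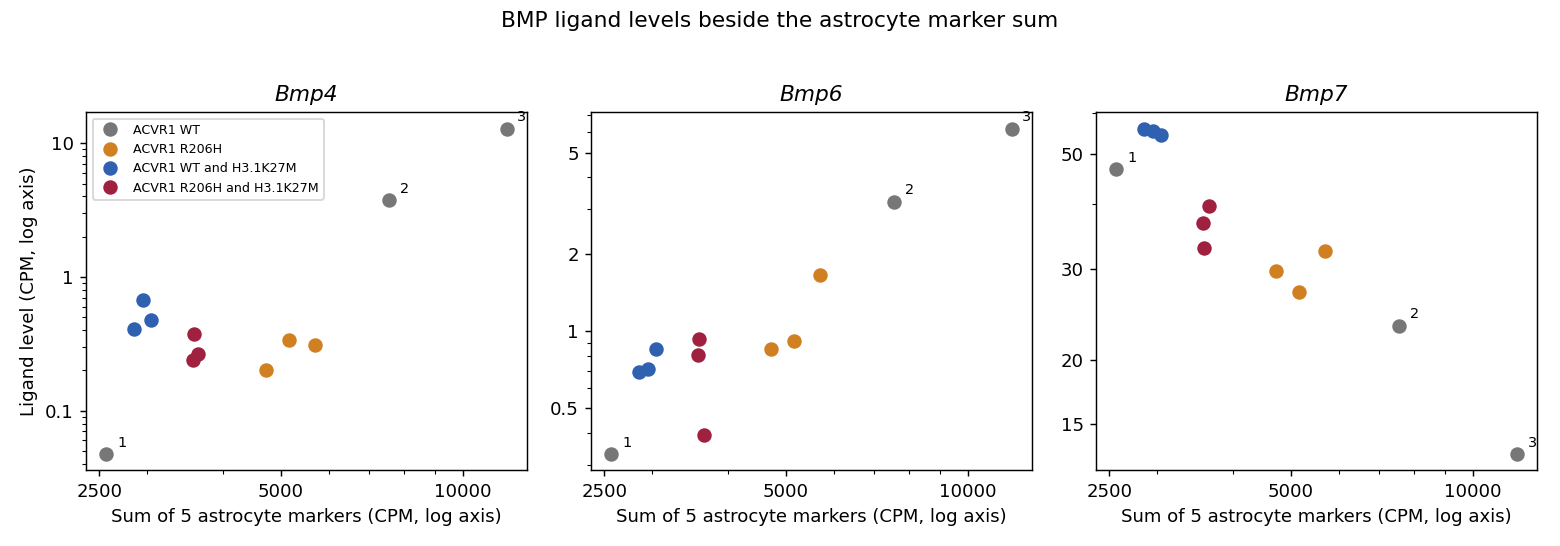
Each point is 1 library, with the sum of 5 astrocyte markers (CPM, log axis) against the level of *Bmp4*, *Bmp6* or *Bmp7* (CPM, log axis), colored by group, and the numbers name the ACVR1 WT replicates. The 3 ACVR1 WT libraries span the range of the marker sum, from 2568 to 11822, and with it the range of *Bmp4* from 0.0474 to 12.9.

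Whether the R206H difference itself depended on H3.1K27M was asked with the interaction over all 12 libraries. In edgeR 0 of 10 ligand genes passed (0.0712% of 15445 genes did), and 1, *Inhbb*, had an unadjusted p below 0.05. The *Inhbb* interaction was -0.38 ± 0.13 (SE) on the log2 scale (edgeR adjusted p = 0.562). DESeq2 called 0 of 10 and 0.628% of all genes. Without ACVR1 WT replicate 1, 6 of 10 passed in edgeR, where 26.6% of genes did. These were *Bmp4* (4.06 ± 1.01), tested only because it is high in ACVR1 WT, *Bmp6* (2.00 ± 0.55), *Bmp7* (-1.31 ± 0.21), *Inhba* (1.41 ± 0.40), *Inhbb* (-0.48 ± 0.11) and *Gdf11* (0.34 ± 0.10). A single library thus decided whether the ligand response to R206H was called different between the backgrounds.

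The comparisons of H3.1K27M with its absence reuse the libraries of the 4 groups compared above, so they are not independent of those comparisons. Among the ACVR1 R206H libraries, 7 of 9 ligand genes passed in a comparison where 56.5% of 15482 genes did. *Bmp7*, *Inhba*, *Gdf11*, *Tgfb1* and *Tgfb3* rose (29.1% of all genes rose), and *Inhbb* and *Tgfb2* fell (27.4% fell). The same 7 did not overlap, as did 63.1% of all genes. In a single fit of all 12 libraries 4 of 9 passed (*Inhbb*, *Gdf11*, *Tgfb1* and *Tgfb3*), where 38.3% of genes did.

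Among the ACVR1 WT libraries *Inhbb* was the 1 ligand gene of 10 that passed, where 23.0% of 15385 genes did. For 4 genes (*Bmp7*, *Inhbb*, *Tgfb2* and *Tgfb3*) the groups did not overlap, as for 45.2% of all genes. DESeq2 called 4 of 10, adding *Bmp4*, *Bmp6* and *Bmp7*, where 29.4% of genes passed. In a single fit of all 12 libraries edgeR called 6 (41.2% of all genes), and without ACVR1 WT replicate 1 it called 7 (52.6% of all genes). The last fit put *Bmp2* at -1.15 ± 0.28, *Bmp4* at -3.97 ± 0.56, *Bmp6* at -2.63 ± 0.32 and *Tgfb2* at -0.47 ± 0.10, all lower with H3.1K27M, and *Bmp7* at 1.62 ± 0.19 and *Tgfb3* at 0.80 ± 0.28, both higher. Those values rest on 2 ACVR1 WT libraries. With all 6 libraries *Bmp4* was at -3.39 ± 1.33 (edgeR adjusted p = 0.112) and *Bmp6* at -2.09 ± 0.87 (edgeR adjusted p = 0.131). Marker lists of other cells moved with H3.1K27M too. The 8 microglia markers summed to 1.28 to 1.54 CPM with H3.1K27M against 5.74 to 35.8 among the ACVR1 WT libraries, and to 2.11 to 3.07 against 9.95 to 13.4 among the ACVR1 R206H libraries. Among the ACVR1 WT libraries 6 of 7 microglia markers tested fell. There 4 of 6 of pericytes, meninges and fibroblasts rose, and 1 of 5 astrocyte markers and 3 of 7 of neural progenitors fell. Of 6 neuron markers 1 rose, and of 5 oligodendrocyte markers 1 fell. The choroid plexus sum was 1.86 to 8.90 CPM with H3.1K27M against 20.95 to 52.7 CPM, and 0 of 3 markers tested passed. Among the ACVR1 R206H libraries 4 of 5 microglia markers tested fell and *P2ry12* rose. In the same comparison 5 of 5 of pericytes, meninges and fibroblasts rose, 3 of 5 astrocyte markers fell, and of 6 neuron markers 4 rose and 1 fell. There 1 of 7 neural progenitor markers rose and 3 fell, 1 of 5 oligodendrocyte markers rose and 2 fell, and *Ttr*, 1 of 3 choroid plexus markers tested, fell, with the list sum at 2.02 to 3.65 against 15.3 to 32.3 CPM. Their part in the ligand levels was not tested.

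**Figure D4:**
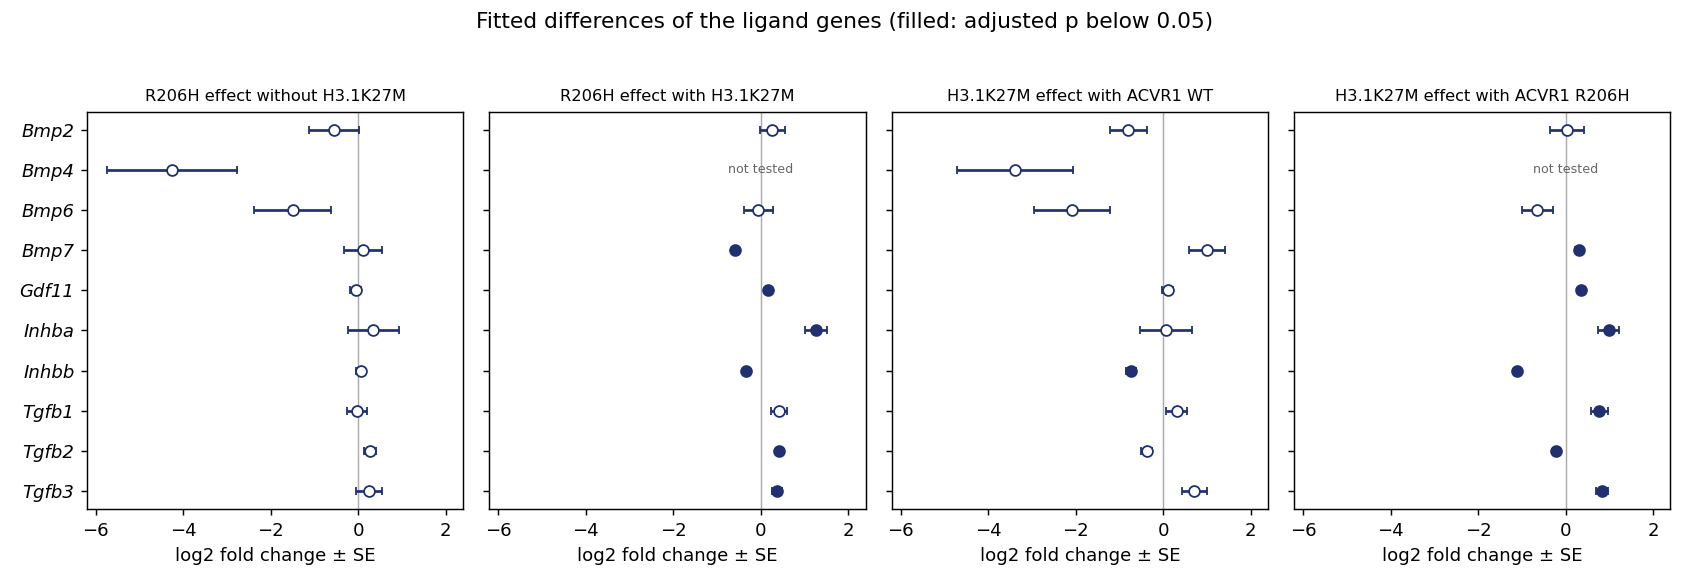
Points give the edgeR log2 fold change of each ligand gene in the 4 comparisons, bars its SE, and filled points an adjusted p below 0.05. Filled points number 0, 6, 1 and 7 from left to right, and the bars are longest for *Bmp4* and *Bmp6* in both comparisons that hold the ACVR1 WT group.

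The other genes of the pathway were taken from 6 lists of 92 genes in all. With R206H in the presence of H3.1K27M, 30 of the 65 tested passed, where 20.3% of all genes did. Of 11 BMP target genes 10 rose and 0 fell in edgeR (median log2 fold change 1.84), led by *Id1* (2.99 ± 0.08 SE), *Id3* (2.99 ± 0.08) and *Id2* (2.15 ± 0.06), which encode inhibitors of differentiation factors. Of 11 extracellular antagonists and decoys 6 rose, led by *Nog* (2.96 ± 0.21), which binds BMPs, *Nbl1* (0.68 ± 0.06) and *Fst* (1.06 ± 0.10), which binds activins. Of 9 genes taken as targets of TGF-beta and activin, *Ccn2* (0.94 ± 0.15), *Ltbp2* (1.61 ± 0.28) and *Col1a1* (0.55 ± 0.18) rose and *Pmepa1* fell by 0.72 ± 0.08.

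Of 11 receptors in that comparison *Bmpr1a* (0.99 ± 0.05), *Bmpr1b* (0.40 ± 0.05) and *Acvr1* (1.91 ± 0.28) rose, all type I receptors for BMPs. Of 19 genes for cutting, storing or releasing ligands 5 rose, led by *Ltbp1* (0.85 ± 0.10), which holds latent TGF-beta in the matrix, *Pcsk6* (0.50 ± 0.06), a convertase that cuts precursors, and *Ltbp2*, and *Itgb8*, part of an integrin that frees latent TGF-beta, fell by 0.30 ± 0.06. Of 5 further ligands tested *Gdf10* rose (2.01 ± 0.47) and *Bmp3* fell by 1.26 ± 0.22. *Gdf10*, at 2 to 6 counts with ACVR1 WT and H3.1K27M, passed the count filter only through the libraries with both, which fixed its direction.

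Without H3.1K27M, 0 of 62 such genes passed in edgeR, with 11 at an unadjusted p below 0.05, against 0% and 534 of 15066 over all genes, and DESeq2 called 4, against 0.173% of all genes. In the interaction *Id3* (2.31 ± 0.23, edgeR adjusted p = 0.0059) and *Id2* (1.75 ± 0.18, edgeR adjusted p = 0.0059) were the 2 of 65 that passed, where 0.0712% of all genes did.

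H3.1K27M was accompanied by a change in several further ligands and their partners. *Gdf15*, a distant and stress-linked member of the family, was at 0.389 ± 0.208 CPM (SD, n = 3) with ACVR1 WT and 0.578 ± 0.232 with ACVR1 R206H, and at 17.8 ± 2.79 and 22.0 ± 2.75 with H3.1K27M. It rose by 5.50 ± 0.33 (SE) on the log2 scale among the ACVR1 WT libraries and 5.24 ± 0.19 among the ACVR1 R206H libraries. *Gdf10* fell by 6.48 ± 1.24 and 3.31 ± 0.26. Its level was 1.90, 18.1 and 35.3 CPM in ACVR1 WT replicates 1, 2 and 3, the order of the astrocyte and microglia sums, whose part was not tested, and its counts were 2 to 6 with ACVR1 WT and H3.1K27M. *Gdf6* fell by 2.6 ± 0.53 among the ACVR1 WT libraries and was also called lower among the ACVR1 R206H libraries. Its counts were 5 to 8 with ACVR1 WT and H3.1K27M and 5 to 9 with both. *Bmp3* fell by 2.13 ± 0.24 and *Bmp5* fell by 1.58 ± 0.43 among the ACVR1 R206H libraries. The *Bmp5* counts were 12 to 19 with ACVR1 R206H and 4 to 10 with both. *Gdf6* and *Bmp5* passed the filter of a mean count of 10 only through the group where they were high. So did *Gdf10* and *Gdf15* (4 to 13 counts without H3.1K27M) among the ACVR1 WT libraries. The filter fixed the direction of these differences, which are no support for a change. *Bmper*, a BMP-binding protein, rose by 1.78 ± 0.16 and 1.71 ± 0.07, *Fst* by 1.41 ± 0.21 and 1.15 ± 0.10, and *Thbs1*, an activator of latent TGF-beta, by 2.03 ± 0.24 and 1.46 ± 0.13. *Twsg1*, which binds BMPs with chordin, fell by 0.55 ± 0.08 and 0.48 ± 0.05, and *Itgb8* fell by 0.48 ± 0.14 and 0.70 ± 0.06. In these pairs the first value is from the ACVR1 WT libraries and the second from the ACVR1 R206H libraries.

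Of the receptors tested, 3 of 10 rose and 2 fell with H3.1K27M among the ACVR1 WT libraries, and 5 of 11 rose and 4 fell among the ACVR1 R206H libraries. Of the type I receptors, *Bmpr1a* rose by 0.47 ± 0.05 among the ACVR1 R206H libraries. *Tgfbr1* fell by 0.49 ± 0.08 and 0.56 ± 0.06 with H3.1K27M and *Bmpr1b* fell by 1.20 ± 0.23 and 0.70 ± 0.05, in the same order. The accessory receptor *Eng* rose by 2.32 ± 0.45 and 1.68 ± 0.21. In all, 18 of 62 listed genes passed among the ACVR1 WT libraries, where 23.0% of all genes did, and 46 of 66 among the ACVR1 R206H libraries, where 56.5% did. Of the 11 BMP targets, *Id3* and *Id2* fell by 1.14 ± 0.20 and 0.64 ± 0.16 among the ACVR1 WT libraries, and 8 rose and *Msx1* fell by 0.35 ± 0.13 among the ACVR1 R206H libraries.

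The genes whose levels over the 12 libraries were most like those of a ligand were found by Pearson correlation of log2(CPM + 0.5) among 15445 genes. The 12 points fall into the 4 groups, and a likeness can come from shared group means, so that it is given without a test. *Inhbb* was most like *Ube2r2* (r = 0.989), *Rap1gap* (0.987) and *Hnrnpul1* (0.986), and *Bmp7* most like *Ctif* (0.989), *Pde7b* (0.972) and *Sox11* (0.969). *Tgfb2* went with *Col4a5* (0.974), *Prkag2* (0.967) and *Slc16a1* (0.940), *Tgfb3* with *Lmna* (0.974), *Ptgfr* (0.971) and *Tmem43* (0.969), and *Gdf11* with *Hk1* (0.968), *Hfe* (0.966) and *Iqub* (0.965). The low genes had looser partners, *Tgfb1* with *Hpn* (0.929), *Ifnlr1* (0.924) and *Trappc6b* (0.921), and *Inhba* with *Abcg4* (0.917), *Dnah9* (0.913) and *Pfkfb4* (0.899). These are the 7 ligand genes called in at least 1 comparison, and the nearest genes of *Bmp2*, *Bmp4* and *Bmp6* were not sought.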

How the data were processed

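RNAseq was measured in 12 libraries. The authors aligned reads to mm10 (GRCm38) with STAR 2.6.0b-1, counted them per Ensembl gene with HTSeq without strand, and deposited raw counts per gene, neither normalized nor pooled. Ensembl IDs were named with GENCODE M21. Each comparison was fitted on its 6 libraries with edgeR 4.0.16 (R 4.3.3, TMM, quasi-likelihood F test, two-sided) keeping genes whose size-factor scaled counts averaged 10 or more, with Benjamini-Hochberg adjustment over all genes tested and a threshold of 0.05. The interaction used all 12. Levels are CPM after TMM over 12 libraries, divided by exon length only between genes. DESeq2 1.42.0, another scaling, no count filter, a replicate block, a single fit and leaving out each library were alternatives. The scripts were tested on simulated data. With 3 against 3, an exact test cannot go below p = 0.1. Replicate numbers were not taken as pairs. The ligands, lists and tests were chosen with earlier results of these data known. All 10 ligands, *Acvr1*, up to 3 called genes per list and direction, and the 3 genes most like each called ligand are named, with marker genes given as lists.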

Additional observations from a re-analysis of the deposited data

How the results depend on the processing

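The 14 called ligand differences were refitted in 168 alternatives, of which 0 turned a direction and 20 lost the call. The methods name cell lines of separate litters and paired tests for other assays of these neurospheres, not for RNAseq, and the labels do not say what replicate numbers mark. Between groups the deviations of same-numbered libraries correlated at -0.12 to 0.35, above 0.1 in 2 of 12 pairs, so they were not taken as pairs. The block on these numbers changed the call of no ligand gene. With the replicate block, 2 genes passed for the interaction and 2023 for H3.1K27M beside ACVR1 WT. The counts of ligand genes that passed when 1 library was left out ran from 0 to 3 for R206H without H3.1K27M, from 0 to 6 for the interaction and from 1 to 7 for H3.1K27M with ACVR1 WT, each upper value without ACVR1 WT replicate 1. Over all genes the counts ran from 0 to 3485 for R206H without H3.1K27M, 1915 to 2966 with it, 3 to 4112 for the interaction and 1037 to 8115 for H3.1K27M with ACVR1 WT. DESeq2 called 26 genes for R206H without H3.1K27M, 4 ligand genes for H3.1K27M with ACVR1 WT, and 97 genes for the interaction. Without a filter on low counts the interaction gave 18.

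A single fit of 12 libraries called 0 ligand genes and 447 genes for R206H with H3.1K27M, 11 genes without it, 6 ligand genes and 6335 genes for H3.1K27M with ACVR1 WT, and 4 ligand genes for H3.1K27M with ACVR1 R206H. The single fit of 11 libraries without ACVR1 WT replicate 1, chosen after the data were seen, called 3 ligand genes and 5080 genes for R206H without H3.1K27M, 2020 genes with it, and 7 ligand genes and 8980 genes for H3.1K27M with ACVR1 WT. It takes the spread from fewer ACVR1 WT libraries.

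Of the ligand differences that did not pass, some changed sign with 1 library left out. Without H3.1K27M the R206H difference, on the log2 scale, then ran from -0.23 to 0.72 for *Bmp7*, with -0.0028 without ACVR1 WT replicate 2, from -0.13 to 0.73 for *Inhba*, from -0.15 to 0.078 for *Gdf11*, from -0.17 to 0.15 for *Tgfb1*, with 0.053 without ACVR1 R206H replicate 1, and from -0.017 to 0.47 for *Tgfb3*. With H3.1K27M that of *Bmp6* ran from -0.33 to 0.23. The H3.1K27M difference ran from -0.41 to 0.46 for *Inhba* with ACVR1 WT and from -0.34 to 0.53 for *Bmp2* with ACVR1 R206H, where no filter gave -0.0046. The *Tgfb3* interaction ran from -0.091 to 0.39. In the fit of 11 libraries *Inhba* was at -0.14 for R206H without H3.1K27M and at -0.42 for H3.1K27M with ACVR1 WT. The cause of these changes was not tested. Low counts of *Bmp2*, *Bmp4*, *Bmp6* and *Inhba* limit what could be detected.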
